A study of Mus musculus with 8 samples.

Results

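The imprinted growth genes examined here are 10 mouse genes: H19, Igf2, Meg3, Dlk1, Peg3, Mest, Cdkn1c, Grb10, Igf2r and Plagl1. They were taken by name from the deposited expression table, which held 24972 genes, and all 10 were present and passed the expression filter that left 13267 genes for testing. The libraries came from primary mouse embryonic fibroblasts, the mesenchymal cultures that grow out of dissociated embryos, prepared at embryonic day 14.0, grown in serum, passaged and left untreated. There were 4 genotypes with 2 RNA sequencing libraries each. These were WT (no mutant allele), Tfam+/- (1 of the copies of Tfam, which packages mitochondrial DNA, lost), Zbp1-/- (no intact Zbp1, a nucleic acid sensor) and Tfam+/-Zbp1-/- (both). No agent, transgene or Cre was named for any group, and the sources used here give neither strain nor embryo sex. Separate embryos or cultures are not stated for libraries that share a genotype, so p-values measure only the spread between these libraries, which may be technical.

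An imprinted gene is transcribed mainly from the copy inherited from 1 parent, because DNA methylation laid down in the egg or sperm marks one copy at a control region shared by neighbouring genes. Many such genes set fetal growth: paternally expressed genes often promote it and maternally expressed genes often restrain it. Igf2, Dlk1, Peg3, Mest and Plagl1 are expressed from the paternal copy, and H19, Meg3, Cdkn1c, Igf2r and, in most tissues, Grb10 from the maternal copy. The deposited values are gene totals, so the parental copies cannot be told apart, and a loss or gain of imprinting cannot be read from them. In bulk cultures, fewer cells of a type and less RNA per cell cannot be told apart either.

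Library totals were 16752835 to 18303036 normalized counts (the authors' scaled values per gene, their scaling not stated), and 16051 to 16261 genes per library were above 0. Of the targeted genes, Tfam was at 278 to 424 normalized counts in the 4 libraries lacking 1 copy and at 471 to 675 in the other 4. Zbp1 was at 3.19 to 7.34 in WT, 64.6 to 69.8 in Tfam+/- and 0.862 to 3.79 in the 4 libraries labelled as lacking it. Its low WT level gives little check of the Zbp1-/- label. The Tfam+/-Zbp1-/- libraries, at 0.862 and 2.69, were far below those of Tfam+/-. All 10 fibroblast markers were present, with sums of 508235 to 739650 per library. The squared difference between libraries of a genotype, relative to that expected from counting error if normalized counts are taken as reads, had a median over genes of 1.20 in WT and 1.20 in Tfam+/-Zbp1-/-, against 20.7 in Tfam+/- and 19.9 in Zbp1-/-. By this median the WT pair and the Tfam+/-Zbp1-/- pair differed by little more than counting noise. Some members differed more. Their unsquared difference over counting error ran from 0.117 (Igf2r) to 3.35 (Meg3) in WT and 0.299 (Mest) to 5.63 (Igf2) in Tfam+/-Zbp1-/-. It ran from 2.83 (Cdkn1c) to 54.0 (H19) in Tfam+/- and 3.85 (Igf2r) to 63.6 (H19) in Zbp1-/-. Tfam+/- replicate 1 and Zbp1-/- replicate 2 stood apart from their partners in the same way. Each result below rests in part on Tfam+/- replicate 1 and Zbp1-/- replicate 2. Calls of members are also given without these libraries or with their shift removed. Calls from the other gene lists are mostly given from the main fit, with counts of calls lost under some alternatives.

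The members lie on 6 chromosomes, some side by side. On chromosome 7 (GRCm38.p6, the assembly also called mm10, 1-based), H19 spans 142575530 to 142578146 and Igf2 spans 142650768 to 142666816, with 72622 bases between them. Cdkn1c (143458339 to 143461059) lies further along the same chromosome, and Peg3 (6703892 to 6730462) lies near its other end. On chromosome 12, Dlk1 (109452485 to 109463336) and Meg3 (109540996 to 109571729) are separated by 77660 bases. Mest lies on chromosome 6 (30733506 to 30748466), Plagl1 on chromosome 10 (13090832 to 13131694), Grb10 on chromosome 11 (11930499 to 12037428) and Igf2r on chromosome 17 (12682406 to 12769706).

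The 250 bases before a start site are shown for 4 members: the neighbours Dlk1 and Meg3, and Mest and Plagl1, the members with the widest range among those of low transcript GC. Capitals mark CG dinucleotides (CpG), the bases that imprinting methylates. The intervals are chr12:109452573-109452822 for Dlk1, chr12:109540746-109540995 for Meg3, chr6:30737800-30738049 for Mest and chr10:13090582-13090831 for Plagl1, all on the plus strand of GRCm38.p6, from RefSeq.
Dlk1: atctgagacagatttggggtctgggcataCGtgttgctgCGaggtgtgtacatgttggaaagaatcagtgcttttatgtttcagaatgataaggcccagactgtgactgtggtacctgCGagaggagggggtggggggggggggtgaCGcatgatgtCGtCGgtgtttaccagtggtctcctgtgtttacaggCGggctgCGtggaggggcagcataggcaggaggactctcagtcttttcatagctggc
Meg3: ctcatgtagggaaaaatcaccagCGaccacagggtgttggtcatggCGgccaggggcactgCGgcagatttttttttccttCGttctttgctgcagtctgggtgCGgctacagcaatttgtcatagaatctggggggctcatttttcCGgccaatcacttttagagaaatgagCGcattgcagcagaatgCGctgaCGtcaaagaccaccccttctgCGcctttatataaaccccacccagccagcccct
Mest: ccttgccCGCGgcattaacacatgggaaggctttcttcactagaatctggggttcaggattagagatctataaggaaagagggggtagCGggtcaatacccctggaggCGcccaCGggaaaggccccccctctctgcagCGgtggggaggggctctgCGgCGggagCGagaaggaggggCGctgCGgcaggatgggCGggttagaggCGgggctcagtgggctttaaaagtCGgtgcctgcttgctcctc
Plagl1: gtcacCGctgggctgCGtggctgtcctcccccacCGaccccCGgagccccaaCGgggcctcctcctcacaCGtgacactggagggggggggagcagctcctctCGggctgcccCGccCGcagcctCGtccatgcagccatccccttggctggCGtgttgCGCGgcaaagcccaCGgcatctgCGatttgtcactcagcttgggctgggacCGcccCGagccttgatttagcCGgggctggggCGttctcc
These windows held 8, 10, 14 and 19 CpG in that order, against a median of 6 over 32851 mouse promoter windows of the same length. The table held 1 further window for Meg3, with 0 CpG, and 2 for Mest, with 7 and 14. The Meg3 and Plagl1 windows shown lie just before the start of the annotated gene. The Dlk1 window lies before an internal start, within the annotated span that begins at 109452485. That of Mest, also from an internal start, was chosen after its CpG count was seen. The letters GGGGCCCC, which read the same on both strands, were in 1 of the 15 windows found for 8 members, that of Peg3, and in 0.889% of all windows. No methylation data are used here.

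**Figure D1:**
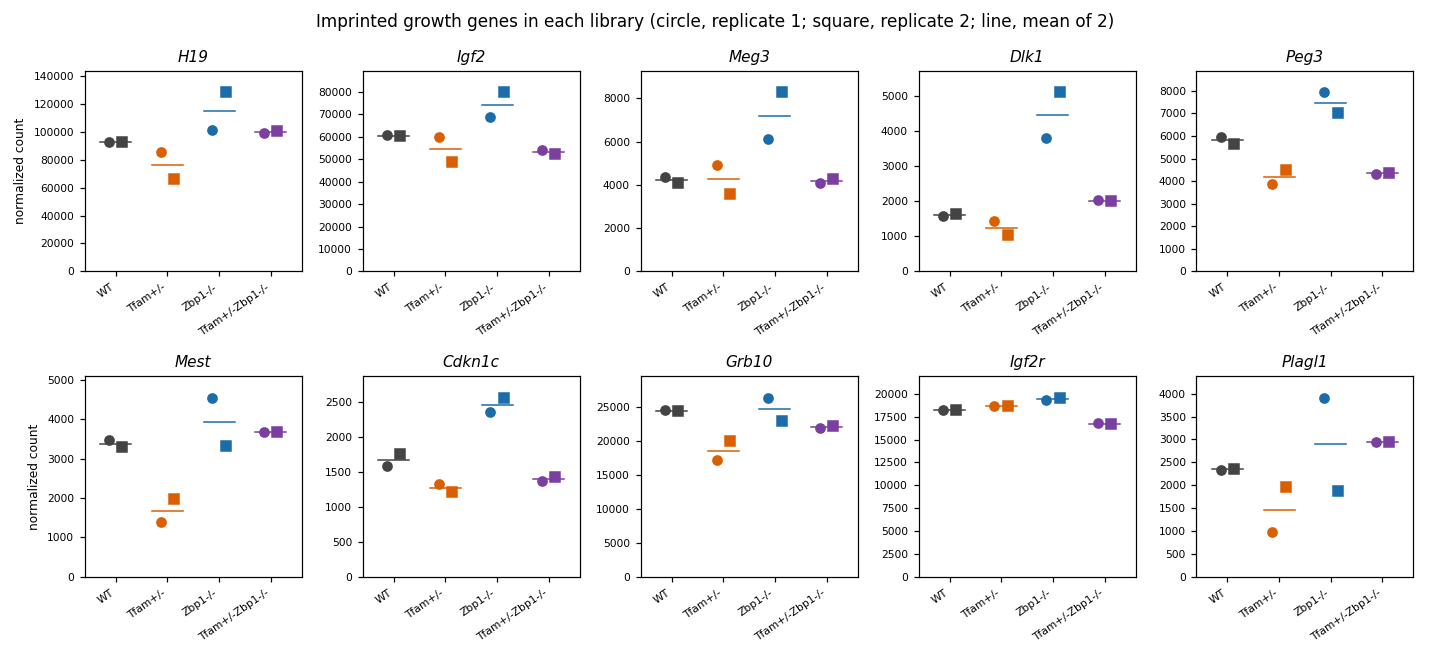
Normalized counts (linear axes from 0) of the 10 imprinted growth genes by genotype; circles are replicate 1, squares replicate 2 and lines the mean of 2 libraries. Dlk1 is higher in both Zbp1-/- libraries (3814 and 5115) than in every other library, and Plagl1 differs most between replicates.

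Among the ligands, Igf2 encodes insulin-like growth factor 2, the main fetal growth factor of this family. For Igf2, WT libraries had 60643 and 60354 normalized counts, Tfam+/- libraries 60053 and 48815, Zbp1-/- libraries 68863 and 79836 and Tfam+/-Zbp1-/- libraries 54086 and 52179. Both Zbp1-/- libraries were above the other 6, and the Tfam+/- and Tfam+/-Zbp1-/- libraries overlapped. Dlk1 encodes a membrane protein related to Notch ligands that holds back fat cell differentiation. For Dlk1, WT libraries had 1592 and 1633 normalized counts, Tfam+/- libraries 1433 and 1037, Zbp1-/- libraries 3814 and 5115 and Tfam+/-Zbp1-/- libraries 2037 and 2011. The 4 genotypes did not overlap, in the order Tfam+/-, WT, Tfam+/-Zbp1-/-, Zbp1-/-. The highest library was 4.93 times the lowest, the widest range among the members. The share of all tested genes without overlap was not counted. Lack of overlap, for this or any other member, is therefore a description and not a result about the members.

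Igf2r encodes the receptor that takes IGF2 into the cell for breakdown. For Igf2r, WT libraries had 18277 and 18291 normalized counts, Tfam+/- libraries 18718 and 18649, Zbp1-/- libraries 19374 and 19608 and Tfam+/-Zbp1-/- libraries 16829 and 16691. The libraries of each genotype stayed close together and the genotypes did not overlap, but the highest library was only 1.17 times the lowest. The antisense transcript Airn, which silences Igf2r on the paternal copy, was at 53.9 to 71.7 normalized counts. Its other targets Slc22a2 and Slc22a3 were listed at 0 in all libraries. Grb10 encodes an adaptor that dampens insulin and IGF receptor signalling. For Grb10, WT libraries had 24504 and 24373 normalized counts, Tfam+/- libraries 17150 and 19953, Zbp1-/- libraries 26369 and 22950 and Tfam+/-Zbp1-/- libraries 21845 and 22130. Both Tfam+/- libraries were below the other 6, while WT lay within the span of Zbp1-/-. Its neighbour Ddc, a decarboxylase gene imprinted with it in some tissues, was at 41.6 to 86.1.

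Cdkn1c encodes p57, an inhibitor of cyclin-dependent kinases that restrains cell division. For Cdkn1c, WT libraries had 1593 and 1752 normalized counts, Tfam+/- libraries 1328 and 1217, Zbp1-/- libraries 2360 and 2569 and Tfam+/-Zbp1-/- libraries 1374 and 1429. No genotypes overlapped, and both Zbp1-/- libraries were above the other 6. In the same imprinted cluster, the noncoding transcript Kcnq1ot1 ranged from 73.4 to 185 and the transporter gene Slc22a18 from 13.3 to 62.7, the latter highest in both Zbp1-/- libraries (56.5 and 62.7). Phlda2, a growth restraint of the placenta, was at 0.992 to 7.32 and was not tested.

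Plagl1 encodes a zinc finger transcription factor that regulates other imprinted genes. For Plagl1, WT libraries had 2338 and 2361 normalized counts, Tfam+/- libraries 978 and 1953, Zbp1-/- libraries 3915 and 1878 and Tfam+/-Zbp1-/- libraries 2932 and 2953. The Zbp1-/- libraries spanned those of WT and Tfam+/-Zbp1-/-, and the lowest and highest values of all came from Tfam+/- replicate 1 and Zbp1-/- replicate 1. Peg3 encodes another zinc finger factor, linked to growth and maternal behaviour. For Peg3, WT libraries had 5962 and 5644 normalized counts, Tfam+/- libraries 3874 and 4478, Zbp1-/- libraries 7942 and 7005 and Tfam+/-Zbp1-/- libraries 4320 and 4384. The order was Zbp1-/-, then WT, then the Tfam+/- and Tfam+/-Zbp1-/- libraries, which overlapped. Of the genes beside Peg3, Zim1 ranged from 115 to 347 and Usp29 from 34.5 to 82.8.

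Mest encodes a predicted enzyme of the endoplasmic reticulum and is a marker of mesodermal growth. For Mest, WT libraries had 3472 and 3301 normalized counts, Tfam+/- libraries 1381 and 1971, Zbp1-/- libraries 4556 and 3324 and Tfam+/-Zbp1-/- libraries 3670 and 3691. Both Tfam+/- libraries were below the other 6, and Zbp1-/- overlapped WT and spanned Tfam+/-Zbp1-/-. Copg2, a coat protein gene that overlaps Mest on the opposite strand, was at 646 to 1098. The sources used here do not state whether counting used strand, so reads from overlapping genes such as Mest and Copg2 may not be separated.

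The remaining members are long noncoding RNAs. H19 is a maternal transcript abundant in the embryo that shares its control region with Igf2. For H19, WT libraries had 93043 and 92782 normalized counts, Tfam+/- libraries 85634 and 66434, Zbp1-/- libraries 101148 and 128378 and Tfam+/-Zbp1-/- libraries 99033 and 100546. No genotypes overlapped, but Tfam+/-Zbp1-/- and Zbp1-/- replicate 1 were nearly equal. H19 and Igf2 together took 0.670% (Tfam+/- replicate 2) to 1.17% (Zbp1-/- replicate 2) of a library's total. Meg3 is the maternal transcript of the cluster that holds Dlk1. For Meg3, WT libraries had 4378 and 4079 normalized counts, Tfam+/- libraries 4919 and 3595, Zbp1-/- libraries 6112 and 8283 and Tfam+/-Zbp1-/- libraries 4110 and 4267. Both Zbp1-/- libraries were above the other 6, whose 3 genotypes overlapped.

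The highest library was a median of 2.08 times the lowest over the 10 members, and 1.64 times over the 13235 tested genes above 0 in every library. In log2 units, the pooled SD between replicates had a median of 0.15 over the members and 0.20 over all tested genes. Plagl1, with a pooled SD of 0.51, was the only member above the 90th percentile of all tested genes (0.44), a mark that 10.0% of tested genes exceed by construction. Igf2r had a pooled SD of 0.0077, smaller than all but 3 tested genes. The range of the members thus exceeded that of a typical gene while their replicate spread did not.

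For most members the replicate spread lay mainly within Tfam+/- and Zbp1-/-. The members' median log2 SD was 0.018 in WT and 0.014 in Tfam+/-Zbp1-/-, against 0.24 in Tfam+/- and 0.20 in Zbp1-/-. Cdkn1c was an exception, at 0.097 in WT, 0.088 in Tfam+/-, 0.086 in Zbp1-/- and 0.040 in Tfam+/-Zbp1-/-. Igf2r, with little spread anywhere, was at 0.0038 in Tfam+/- against 0.0084 in Tfam+/-Zbp1-/-. Members moved the same way in both genotypes when Tfam+/- replicate 1 was set against replicate 2 and Zbp1-/- replicate 2 against replicate 1. Plagl1 differed by -0.997 in Tfam+/- and -1.06 in Zbp1-/- on the log2 scale, and Mest by -0.51 and -0.45. Dlk1 differed by 0.47 and 0.42, Meg3 by 0.45 and 0.44, and H19 by 0.37 and 0.34. Igf2 differed by 0.30 and 0.21, Grb10 by -0.22 and -0.20, Peg3 by -0.21 and -0.18, Cdkn1c by 0.12 and 0.12, and Igf2r by 0.01 and 0.02. The sign matched in 10 of 10 members and in 86.7% of all tested genes, and no member's differences were further apart than 0.086. Across all tested genes, which share these 4 libraries and are not independent, the differences correlated with r = 0.70.

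**Figure D2:**
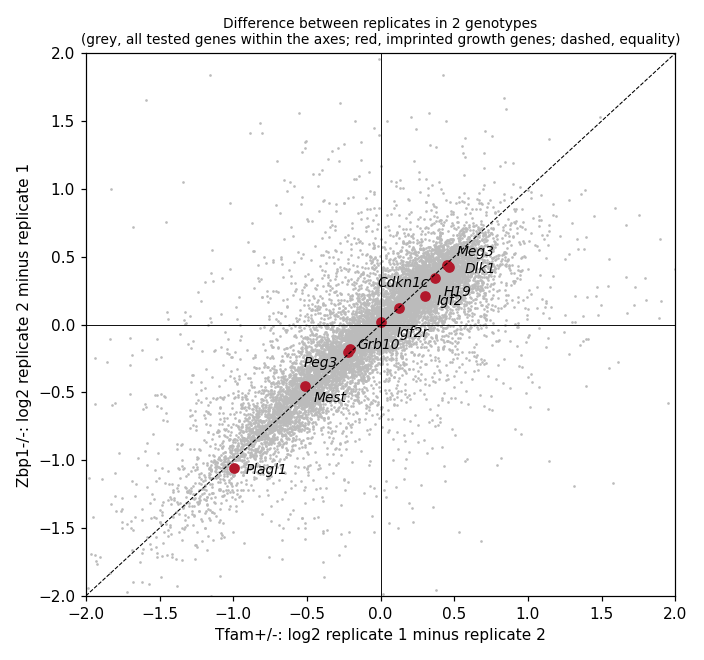
Log2 difference between replicates in Tfam+/- (horizontal) against that in Zbp1-/- (vertical) for all tested genes (grey) and the 10 imprinted growth genes (red). The members lie near the dashed line of equality, from Plagl1 at -0.997 and -1.06 to Dlk1 at 0.47 and 0.42.

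The same differences followed the base composition of transcripts. GC content of the longest annotated transcript was found for 13147 of the tested genes (99.1%), including all members, and its Spearman rho with the replicate difference across genes was 0.77 in Tfam+/- and 0.73 in Zbp1-/-. Against log transcript length, the rho of the same difference was -0.33 in both genotypes. In the fifth of genes with the lowest GC, the median difference was -0.65 in Tfam+/- and -0.63 in Zbp1-/-, and in the fifth with the highest GC it was 0.40 and 0.33.

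Plagl1 (46.4% GC), Peg3 (46.8%), Mest (47.4%) and Grb10 (48.5%) were the members of lowest GC and those with negative differences. Meg3 (49.2%), Igf2r (51.2%), Dlk1 (53.6%), H19 (55.8%), Igf2 (55.8%) and Cdkn1c (59.4%) had differences at or above 0. When the libraries were centred within 50 bins of transcript GC, H19 was left with differences of 0.04 in Tfam+/- and 0.05 in Zbp1-/-, Peg3 with 0.04 and 0.02, and Igf2 with -0.03 and -0.08. Plagl1 kept -0.71 and -0.83, and Meg3 kept 0.48 and 0.50. Mest kept -0.32 and -0.29, and Cdkn1c turned to -0.29 and -0.26. Dlk1 kept 0.23 and 0.18, and Grb10 kept -0.13 and -0.14. Igf2r, which had differed least before centring, turned to -0.13 and -0.09. The noncoding RNA Rian, transcribed downstream of Meg3 on the same strand, went from -0.55 and -0.67 before centring to 0.51 and 0.41 after it. Its GC was 35.8%. The r across all genes was 0.43 after centring, so a shared difference remained, and its cause was not tested.

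**Figure D3:**
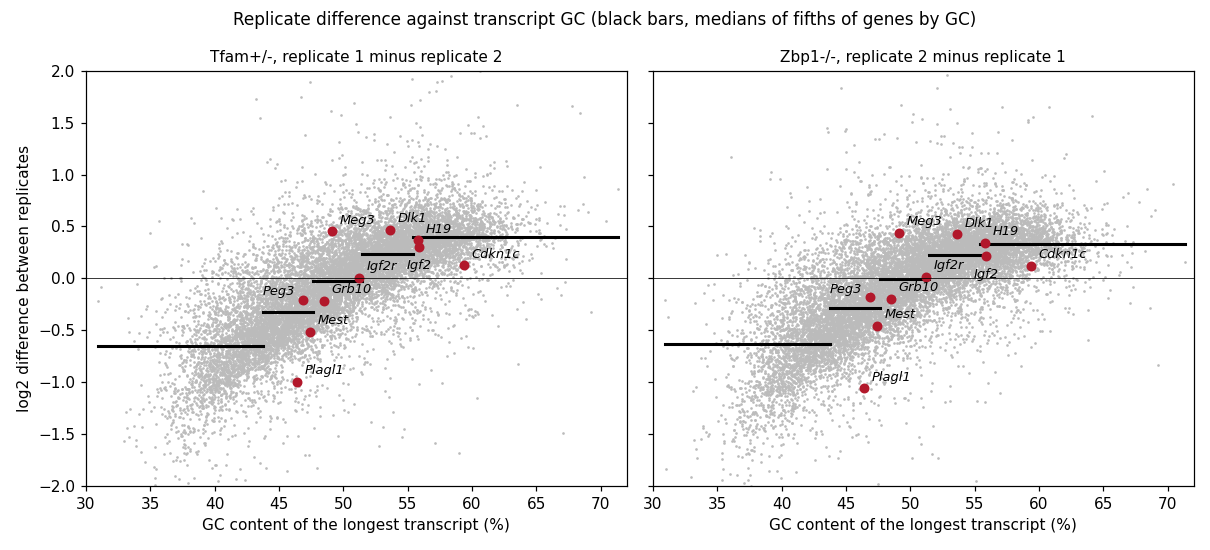
Log2 difference between replicates against transcript GC content (percent) in Tfam+/- and Zbp1-/-, with all tested genes in grey, medians within 5 equal groups of genes by GC as black bars and the imprinted growth genes in red. Medians run from -0.65 to 0.40 in Tfam+/- and from -0.63 to 0.33 in Zbp1-/-, and Plagl1 lies below and Meg3 above the median at its GC.

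Ratios between neighbouring genes were compared within each library, where library scaling cancels. Meg3 over Dlk1 was 2.75 and 2.50 in WT libraries, 3.43 and 3.47 in Tfam+/- libraries, 1.60 and 1.62 in Zbp1-/- libraries and 2.02 and 2.12 in Tfam+/-Zbp1-/- libraries. The 4 genotypes did not overlap, and before GC centring both libraries that stood apart gave nearly the ratio of their partners. A shift linked to GC does not cancel in a ratio. After centring the partners lay further apart, since Meg3 kept differences of 0.48 and 0.50 and Dlk1 of 0.23 and 0.18. The ratio was lower in the genotypes lacking Zbp1, with Tfam intact (1.60 and 1.62 against 2.75 and 2.50) and with 1 Tfam copy lost (2.02 and 2.12 against 3.43 and 3.47). H19 over Igf2 was 1.53 and 1.54 in WT libraries, 1.43 and 1.36 in Tfam+/- libraries, 1.47 and 1.61 in Zbp1-/- libraries and 1.83 and 1.93 in Tfam+/-Zbp1-/- libraries. Only Tfam+/-Zbp1-/- lay above all other libraries, and WT lay inside the span of Zbp1-/-. Some ratios of genes on different chromosomes also separated the genotypes. Igf2 over Dlk1 was 37.0 to 38.1 in WT, 41.9 to 47.1 in Tfam+/-, 15.6 to 18.1 in Zbp1-/- and 26.0 to 26.6 in Tfam+/-Zbp1-/-. H19 over Meg3 was 21.3 to 22.7 in WT, 17.4 to 18.5 in Tfam+/-, 15.5 to 16.5 in Zbp1-/- and 23.6 to 24.1 in Tfam+/-Zbp1-/-. Mest over Plagl1 did not separate them, at 1.40 to 1.49 in WT, 1.01 to 1.41 in Tfam+/-, 1.16 to 1.77 in Zbp1-/- and 1.25 in Tfam+/-Zbp1-/-. Separation was thus neither particular to neighbours nor found in every pair. The ratios of neighbours were chosen for their position, were not tested, and say nothing of the parental copies.

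**Figure D4:**
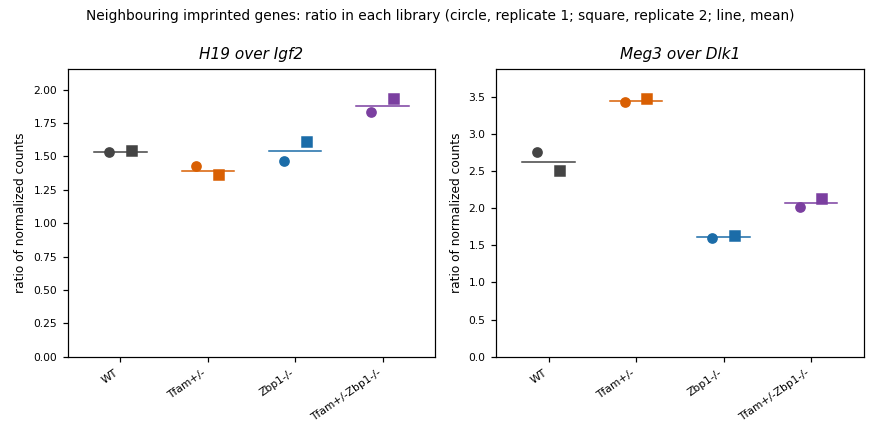
Ratio of normalized counts of H19 to Igf2 and of Meg3 to Dlk1 in each library (circle, replicate 1; square, replicate 2; line, mean; axes from 0). Meg3 over Dlk1 runs from 1.60 in Zbp1-/- to 3.47 in Tfam+/- with no overlap between genotypes.

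Genotypes were compared with limma on log2(normalized count + 1), so changes are on that scale, and a call means a p under 0.05 after Benjamini-Hochberg adjustment over all tested genes. A test of any difference among the 4 genotypes called 4 of 10 members, against 4.94% of all tested genes. They were Dlk1 (adjusted p 0.0121), Cdkn1c (adjusted p 0.0147), Peg3 (adjusted p 0.0219) and Mest (adjusted p 0.0437). With the WT pair and the Tfam+/-Zbp1-/- pair each averaged to 1 sample, 0 of 10 were called, as were 0 of all genes. With GC centring alone 7 were called, against 17.1% of genes. With centring and averaging together 2 were called, against 1.10% of genes: Dlk1 (adjusted p 0.030) and Peg3 (adjusted p 0.047).

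In Zbp1-/- against WT, Dlk1 rose by 1.45 ± 0.19 (log2, SE, 2 libraries each, limma adjusted p 0.0294). It was the 1 member of 10 called, against 1.06% of tested genes. With GC centring, under which 2 members and 6.48% of genes were called, the Dlk1 change was 1.19 (adjusted p 0.0011). Leaving out single libraries gave 1.24 to 1.67 with the authors' scaling. The call was lost without any 1 of the WT, Zbp1-/- or Tfam+/-Zbp1-/- libraries (adjusted p 0.051 to 0.28). It was also lost with the averaged pairs, at 1.45 (adjusted p 0.88).

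The other members had higher means in Zbp1-/- without passing the test with the authors' scaling. Meg3 was at 0.75 ± 0.19 (adjusted p 0.132), Cdkn1c at 0.56 ± 0.11 (adjusted p 0.0747) and Peg3 at 0.36 ± 0.11 (adjusted p 0.176). The unadjusted p was under 0.05 for 4 of 10 members and 19.7% of genes. In all, 10 of 10 members lay above 0, with a median of 0.29, while 60.6% of tested genes did, with a median of 0.11. After rescaling with a trimmed mean of M-values, which brought the median of all genes to -0.00, 8 members lay above 0, and Grb10 and Igf2r were below it. With GC centring Cdkn1c was at 0.15 (adjusted p 0.48), and Peg3 passed the threshold at 0.39 (adjusted p 0.0079). The centred values of H19 (0.01, from 0.29) and Igf2 (0.01, from 0.29) were near 0, and Grb10 (-0.07) and Igf2r (-0.09) lay below it.

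Marker genes of several cell types also differed in level between these genotypes. The sum of 5 cartilage markers (4 present, Matn1 at 0) was 1627 and 1920 in Zbp1-/-, against 1219 and 1249 in WT, 936 to 1173 in Tfam+/- and 911 to 913 in Tfam+/-Zbp1-/-. Most of that sum was Col2a1, a collagen gene, at 1193 and 1591 in Zbp1-/-, 884 and 913 in WT and 572 and 544 in Tfam+/-Zbp1-/-. Not every marker followed it: Sox9, the cartilage transcription factor, was at 380 and 258 in Zbp1-/-, 289 and 294 in WT and 298 and 309 in Tfam+/-Zbp1-/-. The sum of 5 neural crest and Schwann cell markers (4 present, none at 0 in all libraries) was 322 to 340 in Zbp1-/-, 157 to 209 in WT, 149 to 175 in Tfam+/- and 123 to 156 in Tfam+/-Zbp1-/-. All 8 leukocyte markers were present, with sums of 2508 to 2849 in Zbp1-/-, 2277 to 2286 in Tfam+/-Zbp1-/-, 4458 to 4510 in WT and 5172 to 5566 in Tfam+/-. Most of that sum was Lyz2, at 2855 and 2844 in WT and 3445 and 3141 in Tfam+/-. Ptprc (96.6 and 169 in Tfam+/-, 145 and 139 in WT) and Cd53 (93.8 and 179, 138 and 150) did not separate Tfam+/- from WT. The remaining leukocyte markers were higher in both Tfam+/- libraries than in WT. The fibroblast sum itself was highest in Zbp1-/- (636158 and 739650). Sums were 273 to 461 for endothelial markers (3 of 6 present), 565 to 1018 for epithelial (3 of 6), 375 to 937 for skeletal muscle (2 of 7) and 0.929 to 4.93 for fetal liver (0 of 4). Their part in the levels of Dlk1, Meg3 and Cdkn1c was not tested.

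In Tfam+/- against WT, 0 of 10 members were called by limma, against 0.731% of tested genes, and 4 of 10 had an unadjusted p under 0.05, against 8.74% of genes. These were Mest at -1.04 ± 0.21 (adjusted p 0.125), Peg3 at -0.48 ± 0.11 (adjusted p 0.211), Grb10 at -0.40 ± 0.11 (adjusted p 0.309) and Cdkn1c at -0.39 ± 0.11 (adjusted p 0.301). Only 1 member lay above 0, and the median was -0.40, against -0.01 for all genes. With GC centring 6 members were called, against 2.91% of genes, among them Mest at -0.94 (adjusted p 0.0082), Dlk1 at -0.54 (adjusted p 0.027) and H19 at -0.47 (adjusted p 0.0030). None was called when the 2 close pairs were also averaged, against 0.304% of genes.

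In Tfam+/-Zbp1-/- against Tfam+/-, Mest rose by 1.16 ± 0.21 (log2, SE, limma adjusted p 0.0247), the 1 member called of 10, against 5.64% of tested genes. Leaving out single libraries gave 0.90 to 1.41. The call was lost without Tfam+/- replicate 1, and without any 1 library of WT or Tfam+/-Zbp1-/- (adjusted p 0.069 to 0.18). With GC centring, which called 3 members and 15.2% of genes, Mest was at 0.94 (adjusted p 0.0024), and with averaged pairs as well 0 members and 2.09% of genes were called. An unadjusted p under 0.05 was reached by 4 of 10 members and 20.8% of genes. Among uncalled members, Plagl1 was at 1.09 ± 0.40 (adjusted p 0.193), Dlk1 at 0.73 ± 0.19 (adjusted p 0.0835) and H19 at 0.40 ± 0.15 (adjusted p 0.207). Without Tfam+/- replicate 1 the value of Plagl1 was 0.59, and without Tfam+/- replicate 2 that of H19 was 0.22. GC centring brought Dlk1 (0.72, adjusted p 0.0023) and H19 (0.42, adjusted p 0.0016) past the threshold. In this comparison 7 of 10 members lay above 0, and 6 after rescaling, when Peg3 fell below it.

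In Tfam+/-Zbp1-/- against Zbp1-/-, Cdkn1c fell by 0.81 ± 0.11 (log2, SE, limma adjusted p 0.0461). It was the 1 member called, against 0.415% of tested genes, although 6 of 10 had an unadjusted p under 0.05, against 12.3% of genes. The call was lost without any 1 of the WT, Zbp1-/- or Tfam+/-Zbp1-/- libraries (adjusted p 0.11 to 0.51), with the low-value filter removed (adjusted p 0.060) and with averaged pairs (adjusted p 0.997). With GC centring, which called 4 members and 5.92% of genes, Cdkn1c was at -0.60 (adjusted p 0.033). The uncalled members were Dlk1 at -1.13 ± 0.19 (adjusted p 0.0848), Peg3 at -0.78 ± 0.11 (adjusted p 0.0585), Meg3 at -0.76 ± 0.19 (adjusted p 0.187), Igf2 at -0.48 ± 0.12 (adjusted p 0.196) and Igf2r at -0.22 ± 0.08 (adjusted p 0.323). GC centring brought Dlk1 (-1.01, adjusted p 0.0027), Peg3 (-0.92, adjusted p 0.0012) and Igf2 (-0.35, adjusted p 0.012) past the threshold. Only 1 member lay above 0, under both scalings.

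In Tfam+/-Zbp1-/- against WT, 0 members were called by limma, against 1.38% of tested genes, and 1 of 10 had an unadjusted p under 0.05, against 12.6% of genes. That member was Peg3 at -0.41 ± 0.11 (adjusted p 0.173). With GC centring, which called 2 members and 6.56% of genes, Peg3 was at -0.53 (adjusted p 0.0017). The members' median was -0.07 while that of all genes was 0.12. After rescaling 3 members in place of 4 lay above 0, since H19 fell below it.

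The interaction asks whether the change from Zbp1-/- to Tfam+/-Zbp1-/- differed from the change from WT to Tfam+/-. No member was called by limma (0 of 10, against 0.663% of tested genes), and 4 of 10 had an unadjusted p under 0.05, against 16.0% of genes. These were Mest at 0.96 ± 0.29 (adjusted p 0.231), Meg3 at -0.76 ± 0.27 (adjusted p 0.285), Dlk1 at -0.72 ± 0.27 (adjusted p 0.295) and Cdkn1c at -0.42 ± 0.15 (adjusted p 0.290). With GC centring 2 members were called, against 5.04% of genes: Peg3 at -0.55 (adjusted p 0.0077) and H19 at 0.41 (adjusted p 0.021). The centred value of Cdkn1c was -0.02 (adjusted p 0.95). With Tfam+/- replicate 1 and Zbp1-/- replicate 2 left out, the interaction was 0.47 for Mest, -0.31 for Meg3 and -0.28 for Dlk1. The comparisons share libraries, so agreement between them is not independent.

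**Figure D5:**
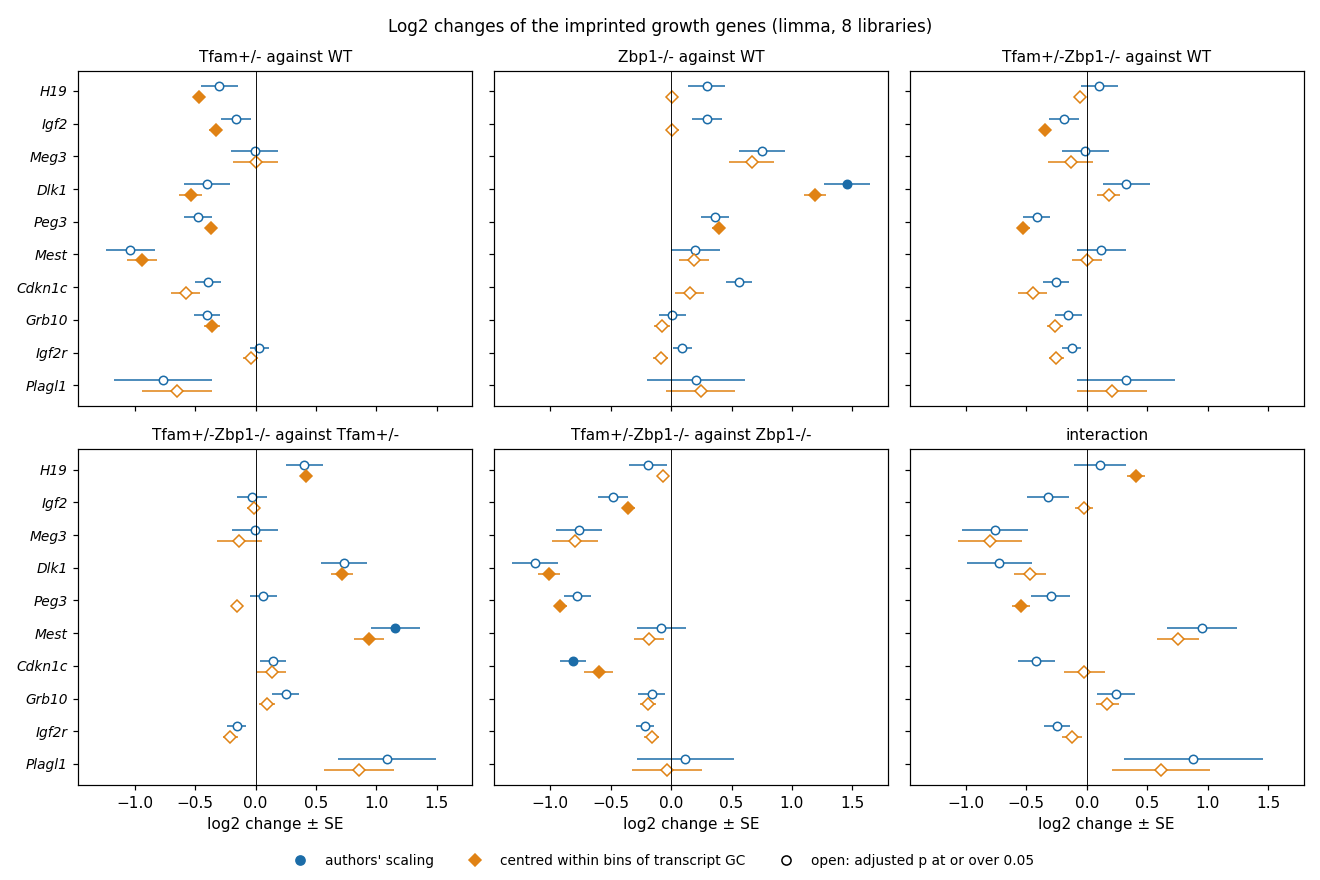
Log2 change (± SE, limma, 8 libraries) of each imprinted growth gene in the 6 comparisons, with the authors' scaling (blue) and after centring within bins of transcript GC (orange); filled points have an adjusted p under 0.05. With the authors' scaling only Dlk1 at 1.45, Mest at 1.16 and Cdkn1c at -0.81 are filled, each in 1 comparison.

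Removing the shared shift raised the counts of called members. With a term for Tfam+/- replicate 1 and Zbp1-/- replicate 2, chosen with earlier results of these data known, limma called 9 members in Tfam+/- against WT (15.6% of genes) and 10 in Zbp1-/- against WT (35.6%). It called 9 in each comparison of Tfam+/-Zbp1-/-, with WT (42.5%), Tfam+/- (45.6%) and Zbp1-/- (23.8%), and 7 in the interaction (16.9%). Any difference among the 4 genotypes was called for all 10 (65.0%). Leaving both libraries out gave the same member counts, beside 15.6%, 34.5%, 44.9%, 43.7%, 23.5%, 19.2% and 60.6% of genes in the same order. With them left out, the estimate of error comes only from the WT and Tfam+/-Zbp1-/- pairs. Differences within those pairs were near counting noise in the median gene. When these pairs were averaged instead, no gene was called in any comparison.

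Genes of the IGF axis, which carry, bind or pass on IGF signals, were described next. Of 20 tested, 6 differed among the 4 genotypes by the same test, against 4.94% of all tested genes: Igfbp2, Igfbp3, Igfbp4, Igfbp5, Igfbp7 and Foxo1. In Zbp1-/- against WT, 3 rose and 0 fell (1.06% of all genes were called), and in Tfam+/- against WT, 0 rose and 1 fell (0.731%). In Tfam+/-Zbp1-/-, 2 rose and 0 fell against WT (1.38%), 3 rose and 1 fell against Tfam+/- (5.64%), and 0 rose and 2 fell against Zbp1-/- (0.415%). The interaction called 0, beside 0.663% of all genes, with 4 at an unadjusted p under 0.05, beside 16.0%.

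Igfbp3, which binds IGFs in the circulation and at the cell surface, stood at 4493 and 4602 normalized counts in WT libraries, 2384 and 2358 in Tfam+/- libraries, 8576 and 8252 in Zbp1-/- libraries and 4657 and 4674 in Tfam+/-Zbp1-/- libraries. Its libraries separated Tfam+/- at the bottom and Zbp1-/- at the top, with log2 changes against WT of -0.94 ± 0.08 (adjusted p 0.00692) and 0.89 ± 0.08 (adjusted p 0.0137). The change in Tfam+/-Zbp1-/- was 0.98 against Tfam+/- (adjusted p 0.00331) and -0.85 against Zbp1-/- (adjusted p 0.0351). Igfbp2, another IGF binding protein, stood at 534 and 563 normalized counts in WT libraries, 1768 and 1063 in Tfam+/- libraries, 2365 and 3741 in Zbp1-/- libraries and 2793 and 2864 in Tfam+/-Zbp1-/- libraries. WT was lowest, and the log2 change was 2.44 ± 0.28 in Zbp1-/- (adjusted p 0.0195) and 2.36 ± 0.28 in Tfam+/-Zbp1-/- (adjusted p 0.0216).

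Igfbp4, which holds IGFs away from their receptor, rose by 0.85 ± 0.11 in Zbp1-/- (adjusted p 0.0294) and by 0.80 ± 0.11 in Tfam+/-Zbp1-/- (adjusted p 0.0298) against WT. Igfbp5 fell by 0.61 ± 0.08 in Tfam+/-Zbp1-/- against Zbp1-/- (adjusted p 0.0461). Against Tfam+/-, Igfbp4 was higher in Tfam+/-Zbp1-/- by 1.06 (adjusted p 0.00453) and Foxo1, a transcription factor held in check by insulin signalling, by 1.08 (adjusted p 0.00960), while Igfbp7 fell by 0.76 (adjusted p 0.00981). Rescaling took the Igfbp4 call in Zbp1-/- to 0.73 (adjusted p 0.051). GC centring took it to 0.52 (adjusted p 0.0096). The genes that moved were mainly binding proteins. The ligand gene Igf1 and the receptor genes Igf1r and Insr were called in no comparison.

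Among 13 inhibitors of cyclin-dependent kinases and G1 cyclins, 1 was called in any comparison, the inhibitor gene Cdkn2c in Tfam+/-Zbp1-/- against Tfam+/- (0.96 ± 0.14, adjusted p 0.0132), where 5.64% of all tested genes were called. Of 47 other imprinted genes 36 passed the expression filter. Of these, 1 was called in Tfam+/-Zbp1-/- against WT, beside 1.38% of all genes, and 1 against Tfam+/-, beside 5.64%. Asb4, a maternally expressed gene of a ubiquitin ligase adaptor, fell by 1.41 ± 0.21 in Tfam+/-Zbp1-/- against WT (adjusted p 0.0356), and Nnat, a paternally expressed membrane protein gene, fell by 0.88 ± 0.18 in Tfam+/-Zbp1-/- against Tfam+/- (adjusted p 0.0421). All 15 calls named from these lists kept their direction, and all were lost without either Tfam+/-Zbp1-/- library or with averaged pairs. Of these 15 calls, 0 were lost with a term for Tfam+/- replicate 1 and Zbp1-/- replicate 2, and 0 with GC centring. With GC centring and averaged pairs together, 14 were lost. The medians of the 36 imprinted genes were -0.16 in Tfam+/- and 0.21 in Zbp1-/- against WT, and those of all genes -0.01 and 0.11.

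In the cluster of Dlk1 and Meg3, Rian stood at 12044 and 11984 normalized counts in WT libraries, 6745 and 9870 in Tfam+/- libraries, 13457 and 8449 in Zbp1-/- libraries and 10356 and 10605 in Tfam+/-Zbp1-/- libraries. Before GC centring, its libraries spread in the opposite sense to those of Meg3 in Tfam+/- and in Zbp1-/-. After centring the sense was the same, at 0.51 and 0.41 for Rian and 0.48 and 0.50 for Meg3. Mirg, a host of microRNAs further along, was at 158 and 149 in WT libraries, 179 and 136 in Tfam+/- libraries, 181 and 251 in Zbp1-/- libraries and 135 and 163 in Tfam+/-Zbp1-/- libraries. Like Meg3, it was higher in Tfam+/- replicate 1 and Zbp1-/- replicate 2 than in their partners. The paternal gene Rtl1, which lies within the Meg3 span as annotated, was at 4.73 to 29.8, with both Zbp1-/- libraries highest (29.8 and 20.5).

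The genes most like each member over the 8 libraries were found by Pearson's r of log2 values, as a description; the libraries share the shift given above. Dlk1 was followed most closely by Tmem132c (r = 0.994) and Slc1a4 (r = 0.992). Meg3 was most like Gnao1 (r = 0.994) and Synpo (r = 0.991), and H19 most like Tns2 (r = 0.990) and Zfp862-ps (r = 0.987). Igf2 was closest to the matrix genes Fndc1 (r = 0.980) and Mmp2 (r = 0.968), Peg3 to Fbln5 (r = 0.986) and Pgm5 (r = 0.980), and Cdkn1c to Afap1l2 (r = 0.980) and Col14a1 (r = 0.975). Mest was closest to Tsen15 (r = 0.993) and Fam114a1 (r = 0.989), Grb10 to Itga1 (r = 0.991) and Aldh1l2 (r = 0.978), and Igf2r to Fhl2 (r = 0.983) and Kcne4 (r = 0.981). Plagl1 was closest to Lrp6 (r = 0.993), a WNT co-receptor gene, and Lgr4 (r = 0.992), an R-spondin receptor gene. No member was among the closest genes of another.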

How the data were processed

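RNA sequencing libraries of 8 samples, 2 for each of 4 genotypes, were grouped by their labels. The authors deposited 1 table of normalized counts per gene, a scaled signal that is not in whole numbers. Reads were aligned to mm10 with STAR 2.6.1a, and Salmon is also named, per the submitters' processing notes. The sources used here state neither the scaling nor the use of strand, and library depth is known only as normalized totals. Tests used log2(normalized count + 1) for 13267 genes with a mean of at least 10. limma 3.58.1 in R 4.3.3 (eBayes with trend) fitted the 4 genotypes together, with 4 residual and 2.77 prior degrees of freedom, two-sided, with Benjamini-Hochberg adjustment over all tested genes. The script was tested on simulated data. GC content came from the longest GENCODE M21 transcript on GRCm38, promoter sequences and coordinates from RefSeq on GRCm38.p6.

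The 10 members and the gene lists were chosen with earlier results of these data known. Genes named beside them were those called from the IGF, cell cycle and imprinted lists, their locus neighbours, and the 2 genes most like each member. Values of Igf1, Igf1r and Insr were seen before these genes were named. The alternatives tried were a pseudocount of 5 or 0.1, a filter at a mean of 50 or none, a trimmed mean of M-values for scaling (30% of ratios, 5% of means trimmed), a prior without trend, only the genotypes compared, a replicate block, leaving out each library, and a term for or removal of the 2 libraries that stand apart. Averaging the close pairs, centring in 50 bins of GC, and both together were chosen after seeing the data. The count tests were not run, since the values are not counts.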

Additional observations from a re-analysis of the deposited data

How the results depend on the processing

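No member's log2 change turned its direction under any alternative, among the 23 changes with an unadjusted p under 0.05. Of 21 alternatives, the Dlk1 call held in 11, the Mest call in 12 and the Cdkn1c call in 9. Pseudocounts of 5 and 0.1 and a mean of at least 50 changed no count of called members by over 1.5 times. Leaving out each library gave 0 to 1 members called in Zbp1-/- against WT, 0 to 1 in Tfam+/-Zbp1-/- against Tfam+/-, 0 to 3 in Tfam+/-Zbp1-/- against Zbp1-/-, and 0 to 4 for any difference among the 4 genotypes. In a fit with 1 library left out, the lone library is assumed to vary like the other genotypes. With no filter on low values or a prior without trend, 0 were called in Tfam+/-Zbp1-/- against Zbp1-/-, and with no filter 0 had a replicate SD above the 90th percentile. That count was also 0 in the WT and Tfam+/-Zbp1-/- pairs alone. Fits of only the genotypes compared called 0 in Zbp1-/- against WT. For Tfam+/-Zbp1-/- they called 9 with WT, 0 with Tfam+/- and 0 with Zbp1-/- as the reference. The fit with WT took its error only from the WT and Tfam+/-Zbp1-/- pairs. Differences within those pairs were near counting noise in the median gene. Shares of all genes are not given beside these counts or those with a library left out, so neither is read as a result about the members. A term for Tfam+/- replicate 1 and Zbp1-/- replicate 2 gave 9, 10, 9, 9, 9 and 7 members called in the comparisons, in this order: each single mutant against WT (Tfam+/- first), the double mutant against WT, then Tfam+/-, then Zbp1-/-, and the interaction, and 10 for any difference; leaving these libraries out gave 9, 10, 9, 9, 9, 7 and 10. GC centring gave 6, 2, 2, 3, 4, 2 and 7. Averaging the WT pair and the Tfam+/-Zbp1-/- pair gave 0 throughout, and with GC centring 0, 0, 0, 0, 0, 0 and 2. Rescaling moved the share of higher calls over all genes from 84.4% to 73.3% in Zbp1-/- against WT, from 65.0% to 47.9% in Tfam+/-Zbp1-/- against WT, and from 58.8% to 42.9% against Tfam+/-. The causes were not tested, beyond the fewer samples that averaging leaves.

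The labels number the replicates alike in every genotype, but same-numbered libraries did not deviate together (r across genes -0.70 to 0.06), so the number does not pair them. With the replicate number as a block, 0 members were called in every comparison and 0 for any difference. With 2 libraries per genotype, no exact test of a single gene between 2 genotypes can pass the threshold. Changes of the members rest on the spread pooled over genotypes, which is set mostly by Tfam+/- and Zbp1-/-.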
